A study of Mus musculus with 6 samples.

Results

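The mRNAs of 30 genes of cholesterol and fatty acid synthesis were followed in cells of B16-F10, a mouse melanoma line, after sorting by their melanin content. The 30 genes are enzymes of both pathways, their regulators and 1 carrier protein, chosen as targets of the sterol regulatory element-binding proteins (SREBPs), and they were found by mouse gene symbol among the 18324 gene rows of the deposited count table. Of these, 29 matched directly, and *Msmo1* stood under its older symbol *Sc4mol*. The sterol branch has 18 of them and the fatty acid branch 8, and the other 4 are regulators or carriers. Cells were sorted on the light scatter that melanin gives into a high-pigmented (HPC) and a low-pigmented (LPC) population, with 3 libraries of each. Both populations carried the same genotype, were grown in the same serum-containing medium and received no agent that the labels name, so the sorted pigment class is what separates the groups. Libraries were made with QuantSeq, a method that reads the 3′ ends of polyadenylated transcripts, so that a count does not scale with transcript length. Each HPC library shares a title suffix with 1 LPC library, and the suffixes 16-9-15, 18-8-14 and 1-9-14 are called pairs 1, 2 and 3 here. The labels do not say what the suffix marks or whether the libraries came from separate cultures, and p-values therefore measure only the spread between these libraries of 1 cell line.

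Animal cells make cholesterol from acetyl-CoA by way of mevalonate, farnesyl diphosphate, squalene and lanosterol. Fatty acids are built from the same precursor, first to palmitate, and are then elongated and desaturated. Both branches are transcribed under SREBPs, membrane proteins of the endoplasmic reticulum that are cut and released to the nucleus when sterols are low; SREBP2, from *Srebf2*, acts mainly on sterol genes, and SREBP1, from *Srebf1*, mainly on fatty acid genes. INSIG1 holds the SREBP complex in the endoplasmic reticulum when sterols are plentiful.

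SREBPs act together with NF-Y, a factor that binds CCAAT boxes, so the promoters of the genes were searched for both sites. RefSeq promoter windows (build GRCm38.p6, 250 bases before to 50 after a start site) were at hand for 23 of the 30 genes, 15 of the sterol branch, 5 of the fatty acid branch and 3 regulators. They number 28, since *Pmvk*, *Dhcr7* and *Srebf1* have more than 1. In 20 windows the start site lies within 100 bases of the start of the RefSeq gene, and in 8 it lies further inside, as in *Fasn* (619 bases) and *Acaca* (65803 bases). The letters searched, on both strands, were TCACNCCAC for the sterol regulatory element, CCAAT for the NF-Y box and CACGTG for the E-box, which SREBPs can also bind. The first and the second do not overlap in the promoters printed below. A CCAAT box was found in 20 of the 28 windows (71.4%), compared with 37.4% of all 32851 windows in the table. By branch, it stood in 14 of 18 sterol windows (77.8%), 2 of 5 fatty acid windows (40%) and 4 of 5 regulator windows (80%). Counted by gene, with a match in any window, it was 19 of 23 genes (82.6%), compared with 41.1% of all 27025 genes in the table. TCACNCCAC was found in 1 of the 28 windows (3.57%), that of *Hmgcs1*, compared with 1.24% of all windows, and CACGTG in 4 (14.3%, in *Hsd17b7*, *Sc5d*, *Dhcr7* and *Insig1*), compared with 7.15%. A match is a description of these letters and not a measured binding site. Only these letters were searched, so a window without a match is not shown to lack another form of the site. The promoter of *Hmgcs1* (chr13:119690101-119690400, plus strand) is shown because it holds the match to the sterol element, and those of *Idi1* (chr13:8885356-8885655, plus strand), *Cyp51* (chr5:4104648-4104947, minus strand), *Msmo1* (chr8:64733529-64733828, minus strand) and *Fasn* (chr11:120824498-120824797, minus strand) because these genes carried the differences between pairs described further on, a choice made after their values were seen. Each spans the bases around the table's start site, which for *Fasn* lies inside the RefSeq gene, and is printed 5′ to 3′ on the gene's strand, with matches to TCACNCCAC and to CCAAT or its reverse complement ATTGG in capitals.
Hmgcs1: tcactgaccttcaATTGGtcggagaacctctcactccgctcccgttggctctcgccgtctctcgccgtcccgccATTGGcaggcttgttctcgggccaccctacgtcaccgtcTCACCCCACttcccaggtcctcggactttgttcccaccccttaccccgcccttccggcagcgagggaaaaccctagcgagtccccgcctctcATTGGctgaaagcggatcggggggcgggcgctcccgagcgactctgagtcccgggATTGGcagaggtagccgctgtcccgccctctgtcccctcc
Idi1: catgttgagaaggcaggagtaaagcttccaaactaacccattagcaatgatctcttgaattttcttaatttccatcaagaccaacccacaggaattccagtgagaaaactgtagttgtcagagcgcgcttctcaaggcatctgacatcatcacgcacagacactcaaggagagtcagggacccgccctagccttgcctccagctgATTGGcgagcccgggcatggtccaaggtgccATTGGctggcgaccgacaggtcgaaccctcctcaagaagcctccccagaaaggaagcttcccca
Cyp51: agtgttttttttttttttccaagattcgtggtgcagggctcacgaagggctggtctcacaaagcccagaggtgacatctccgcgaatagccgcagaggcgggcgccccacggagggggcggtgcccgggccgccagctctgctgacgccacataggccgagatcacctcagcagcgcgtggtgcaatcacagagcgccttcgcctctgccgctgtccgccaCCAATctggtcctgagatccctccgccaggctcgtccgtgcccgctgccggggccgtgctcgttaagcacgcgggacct
Msmo1: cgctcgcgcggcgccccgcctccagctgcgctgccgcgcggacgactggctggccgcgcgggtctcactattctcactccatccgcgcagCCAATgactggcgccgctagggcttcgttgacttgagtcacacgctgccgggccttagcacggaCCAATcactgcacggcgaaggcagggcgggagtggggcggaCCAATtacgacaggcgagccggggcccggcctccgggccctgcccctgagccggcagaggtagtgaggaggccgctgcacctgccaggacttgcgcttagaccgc
Fasn: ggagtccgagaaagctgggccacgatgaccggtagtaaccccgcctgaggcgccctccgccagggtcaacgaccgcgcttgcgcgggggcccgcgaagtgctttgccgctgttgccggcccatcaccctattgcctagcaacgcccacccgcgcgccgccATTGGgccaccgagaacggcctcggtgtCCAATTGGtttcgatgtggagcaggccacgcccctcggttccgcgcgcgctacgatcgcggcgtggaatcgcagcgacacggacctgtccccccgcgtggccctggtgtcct
Counted from the start site of the window, the TCACNCCAC match of *Hmgcs1* begins at base -137, with 4 CCAAT boxes around it at -237, -176, -45 and 11. *Idi1* has reverse-strand boxes at -45 and -14, *Cyp51* 1 box at -29, and *Msmo1* 3 at -160, -96 and -55. In *Fasn* the boxes begin at -90, -62 and -59. The windows of *Lss*, *Dhcr7*, *Elovl6* and *Srebf1*, which also carried differences between pairs, are not printed. A CCAAT box stood in that of *Lss* and in some of those of *Dhcr7* and *Srebf1*, but not in that of *Elovl6*.

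The 6 libraries held 3819605 to 7311131 gene counts. Pair 2 stood apart: a single row, *RP23-81C12.3*, took 53.9% of the gene counts in its HPC and 27.1% in its LPC library, compared with 3.54% to 5.03% elsewhere, and mitochondrial rRNA took 12.2% and 7.69%, compared with 1.51% to 1.99%. The 30 genes received 0.0391% and 0.0664% of the counts in that pair and 0.271% to 0.311% in the other 4 libraries. The comparison of HPC and LPC was therefore also fitted without pair 2 and with pair as a term. The 7 melanocytic markers were all present, with a summed level of 4443 to 20733 CPM (gene counts scaled to library size with TMM normalisation factors). Of 15 markers of fibroblasts, leukocytes and epithelium, 7 had rows, the largest count was 55, and the highest summed level of each list (33.2, 11.6 and 15.1 CPM) was in the HPC library of pair 2. Their part in the values of pair 2 was not tested.

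In each of the 6 libraries *Scd2*, a stearoyl-CoA desaturase that makes monounsaturated fatty acids, had the highest level of the 30 genes. It was at 609.8, 321 and 1054 CPM in the HPC libraries of pairs 1, 2 and 3 and at 699, 335 and 905 CPM in the LPC libraries, with means of 662 ± 369 and 646 ± 289 (SD, n = 3). *Fasn*, the synthase that assembles palmitate, was at 150.3, 44.2 and 226 CPM in HPC and 173, 62.6 and 273 CPM in LPC. On the sterol branch the highest level was that of *Msmo1*, the methylsterol monooxygenase, at 271, 86.1 and 167 CPM in HPC and 216, 54.9 and 133 CPM in LPC. *Cyp51*, which takes a methyl group off lanosterol, was at 164, 8.15 and 126 CPM in HPC and 177, 46.3 and 96.9 CPM in LPC. For all 4 genes the populations overlapped, and the lowest library of each population was that of pair 2. *Fads2*, a desaturase of polyunsaturated fatty acids, lay at the other end: its counts were 18, 0 and 2 in HPC and 11, 8 and 1 in LPC. It was the only one of the 30 left out of the fit to all 6 libraries by the filter on low counts, so 29 genes were tested there.

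**Figure D1:**
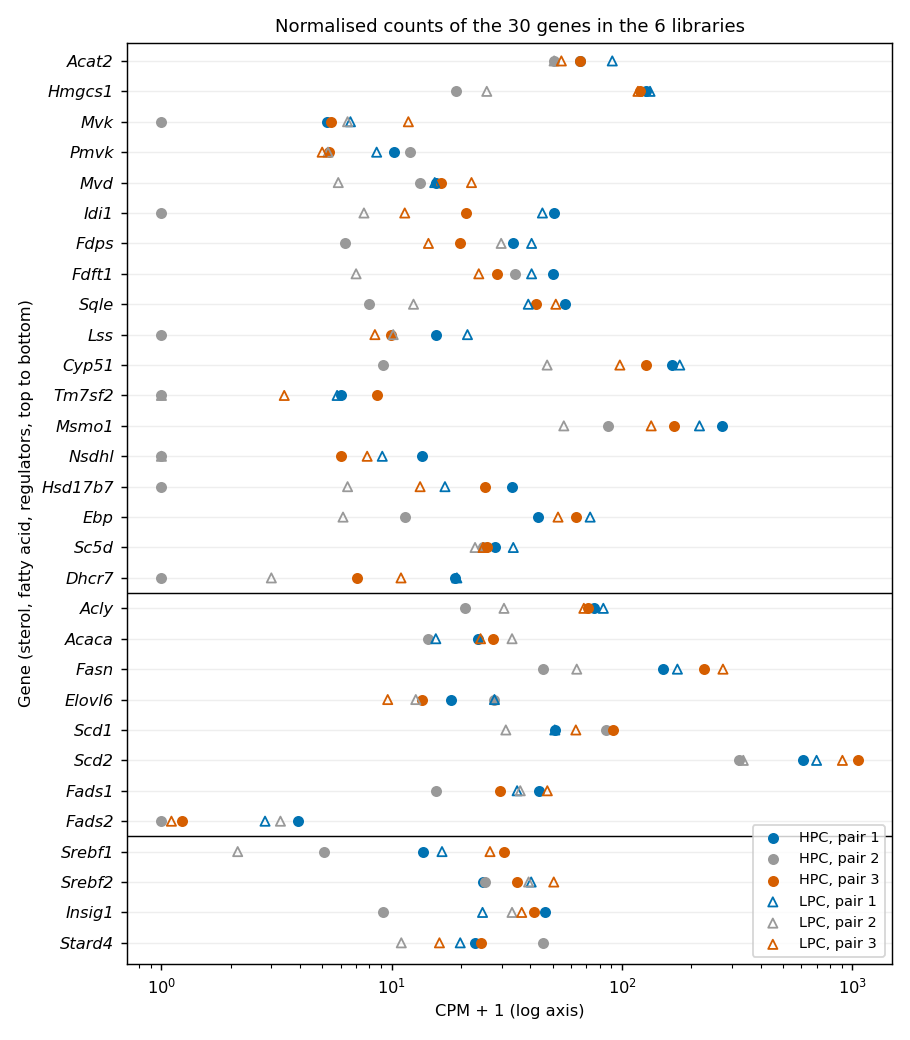
Level of each of the 30 genes in every library, as CPM plus 1 on a log axis, by role. Filled circles are HPC and open triangles LPC libraries, and the colour gives the pair. The pair 2 symbols lie furthest to the left for most sterol genes, and *Scd2* lies furthest to the right in each library.

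HPC and LPC were compared to ask whether sorted pigment content goes with the level of these mRNAs. None of the 29 tested genes passed the test: edgeR's quasi-likelihood test on the 6 libraries called 0 of 29, and it called 0 of all 11324 genes tested (0%). At an unadjusted p under 0.05 the count was also 0 of 29, compared with 0.336% of all genes, and the smallest p of the 29 was 0.1002, that of *Stard4*. The median log2 fold change of HPC over LPC was 0.0055 on the sterol branch, -0.11 on the fatty acid branch and 0.09 among the 4 regulators, and -0.04 over all genes tested. On the sterol branch 9 of 18 genes had a higher fitted level in HPC, on the fatty acid branch 3 of 7. In bulk libraries, fewer cells with a transcript and less of it per cell cannot be told apart. The fit to 6 libraries had a biological coefficient of variation of 71.6%, compared with 19.5% in the fit without pair 2 and with pair as a term. That second fit called 155 of 11906 genes (1.30%) and again 0 of the 30. DESeq2 called 5 genes (0.0275%) and 0 of the 30, and without pair 2 and with pair as a term it called 136 of the 1589 genes to which it gave an adjusted p (8.56%), but only 5 of the 30 were given one and 0 of these passed. With limma-voom, sample weights and a pair term, 34 genes were called (0.300%) and 0 of the 29 genes.

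Within pairs, the direction of the difference varied. On the log2 CPM scale with a prior count of 2, the median HPC minus LPC difference of the sterol branch was 0.0018, -0.23 and 0.25 in pairs 1, 2 and 3, and that of the fatty acid branch was -0.13, -0.50 and 0.19. Over all genes the medians were 0.016, -0.20 and -0.0024. In pair 3, 13 of 18 sterol and 5 of 7 fatty acid genes were higher in HPC. In pair 1, 9 and 2 were, and in pair 2, 6 and 2 were, with 10 sterol and 5 fatty acid genes lower. Of all genes, 48.6%, 54.998% and 50.2% were lower in HPC in pairs 1, 2 and 3. The fatty acid median lay below the sterol median in each of the 3 pairs. Of the 29 genes, 4 were higher in HPC in all 3 pairs (*Pmvk*, *Fdft1*, *Msmo1* and *Stard4*; 13.8%, against 12.9% of all genes) and 4 were lower in all 3 (*Mvk*, *Dhcr7*, *Fasn* and *Srebf2*; 13.8%, against 17.2%). These shares are near the background.

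**Figure D2:**
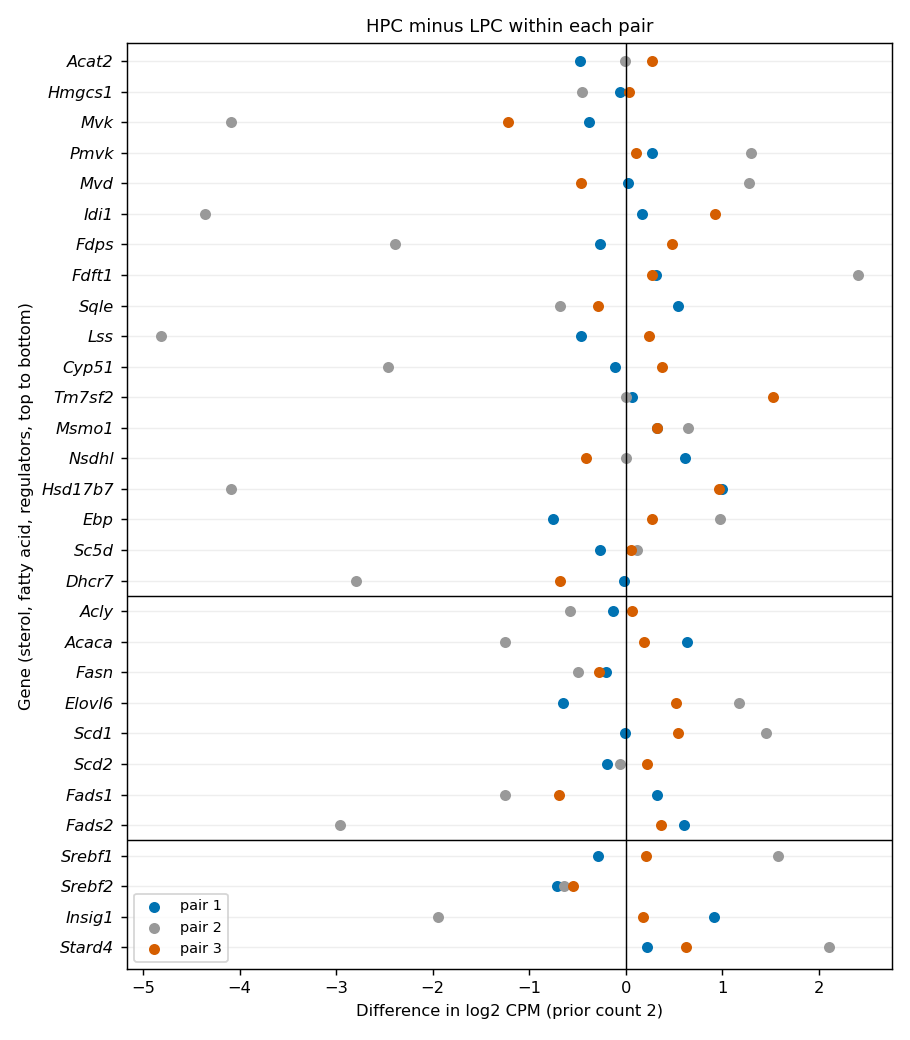
HPC minus LPC difference within each pair, in log2 CPM with a prior count of 2, for the 30 genes by role. Each gene has 1 point per pair, coloured by pair, and the vertical line marks no difference. The points of pair 2 spread the widest, from -4.81 (*Lss*) to 2.40 (*Fdft1*), and the 3 points of *Srebf2* lie together on the left.

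Among the regulators and carriers, the populations did not overlap for *Srebf2* and *Stard4*. *Srebf2* was at 23.9, 24.4 and 33.9 CPM in the HPC libraries of pairs 1, 2 and 3 and at 39.3, 38.3 and 49.5 CPM in the LPC libraries, so that every HPC library lay below every LPC library. The means were 27.4 ± 5.62 and 42.4 ± 6.21 CPM (SD, n = 3), and the difference within pairs was -0.71, -0.64 and -0.54. It did not pass the test: the log2 fold change was -0.63 ± 0.41 (SE; adjusted p = 0.9996, edgeR), and without pair 2 and with pair as a term it was -0.64 ± 0.21 (adjusted p = 0.156, edgeR). *Stard4*, a carrier that moves cholesterol between membranes, showed the opposite order. It was at 22.0, 44.2 and 23.5 CPM in HPC and 18.8, 10.0 and 15.1 CPM in LPC, with each HPC library above each LPC library. Its log2 fold change was 1.02 ± 0.55 (adjusted p = 0.9996, edgeR). This came largely from pair 2, where the log2 difference was 2.11, compared with 0.22 and 0.63 in the other pairs. Without pair 2 and with pair as a term the log2 fold change was 0.42. *Mvk*, the mevalonate kinase, was the third gene without overlap, at 4.23, 0 and 4.44 CPM in HPC and 5.62, 5.43 and 10.8 CPM in LPC, a low level throughout. In all, 1 of 29 genes was higher in HPC without overlap, compared with 2.43% of all genes, and 2 were lower, compared with 3.31%.

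*Srebf1* and *Insig1* gave no such order. *Srebf1* was at 12.7, 4.07 and 29.8 CPM in HPC and 15.5, 1.14 and 25.7 CPM in LPC, and its spread between pairs exceeded its difference between populations (log2 fold change 0.14 ± 1.07). *Insig1*, itself a target of the SREBPs that it restrains, was at 45.2, 8.15 and 40.5 CPM in HPC and 23.8, 32.3 and 35.7 CPM in LPC. It was higher in HPC in pairs 1 and 3 (0.92 and 0.18) and lower in pair 2 (-1.94).

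On the sterol branch, the gene with the smallest adjusted p without pair 2 was *Hsd17b7*, a ketosteroid reductase of the steps that follow lanosterol. It was at 32.2, 0 and 24.3 CPM in HPC and 16.03, 5.43 and 12.28 CPM in LPC. The HPC library was thus the higher in pairs 1 and 3, by 0.99 and 0.97, while pair 2 went the other way. With pair as a term and without pair 2 its log2 fold change was 0.98 ± 0.26 (adjusted p = 0.0621, edgeR), which misses the threshold of 0.05. *Hmgcs1*, the synthase that makes HMG-CoA, was at 126, 18.04 and 119 CPM in HPC and 131, 24.9 and 116 CPM in LPC, a difference of -0.05 ± 0.80 between populations. *Msmo1* differed by 0.38 ± 0.60, *Cyp51* by -0.10 ± 0.91 and *Fdft1*, the squalene synthase, by 0.68 ± 0.68. Without pair 2 and with pair as a term these became 0.32 for *Msmo1*, 0.12 for *Cyp51* and 0.29 for *Fdft1*, so *Cyp51* changed sign. For *Hmgcs1*, *Msmo1* and *Cyp51* the standard error exceeded the log2 fold change. Apart from *Mvk*, the remaining sterol genes overlapped between populations too. *Acat2*, the thiolase that joins acetyl-CoA units, lay between 49.5 and 89.7 CPM and *Sc5d*, a desaturase of the last steps, between 22.0 and 32.7 CPM. In HPC and LPC of pair 2 *Acat2* was at 49.5 and 49.7 CPM and *Sc5d* at 23.9 and 22.0 CPM. For each gene these were the lowest of the 6 libraries. Wider ranges were found for *Ebp*, the sterol isomerase (5.15 to 71.7 CPM), *Sqle* (6.98 to 55.8 CPM) and *Mvd*, the mevalonate diphosphate decarboxylase (4.86 to 21.2 CPM). *Pmvk* (3.99 to 11.1 CPM), *Nsdhl*, a sterol dehydrogenase (0 to 12.5 CPM), and *Tm7sf2*, a sterol reductase (0 to 7.60 CPM), were low throughout.

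On the fatty acid branch, *Scd1*, the second stearoyl-CoA desaturase, overlapped between populations. It was at 49.9, 83.8 and 90.6 CPM in HPC and 50.1, 30.3 and 62.0 CPM in LPC, with a log2 fold change of 0.65 ± 0.44 (adjusted p = 0.9996, edgeR). The within-pair log2 differences were -0.0036, 1.46 and 0.54. Without pair 2 and with pair as a term the log2 fold change was 0.27 ± 0.19. *Scd2* differed by 0.03 ± 0.55. *Fasn* differed by -0.27 ± 0.69 and was lower in HPC by 0.20, 0.50 and 0.27 in the 3 pairs. *Acly* (19.8 to 82.0 CPM), *Acaca* (13.4 to 32.3 CPM) and *Fads1*, a desaturase of polyunsaturated fatty acids (14.6 to 46.4 CPM), overlapped as well.

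Several enzymes were not detected in the HPC library of pair 2. The count there was 0 for 8 of the 30 genes, namely *Mvk*, *Idi1*, *Lss*, *Tm7sf2*, *Nsdhl*, *Hsd17b7*, *Dhcr7* and *Fads2*. Of these, 7 belong to the sterol branch. Of the 29 genes tested, 7 were at 0 in the same library, compared with 20.3% of all genes tested, so the share is near the background. A count of 0 in this library allows a level of up to 1.75 CPM, from 3 counts. Against that limit, *Lss*, the lanosterol synthase, was at least 5.24-fold lower in HPC than in LPC of pair 2, *Idi1*, the isopentenyl diphosphate isomerase, at least 3.77-fold lower, and *Mvk* and *Hsd17b7* each at least 3.11-fold lower. These bounds rest on LPC counts of 32, 23, 19 and 19, taken as they stand. They cover the counting error of the 0 in HPC only, not that of the LPC counts. *Tm7sf2* and *Nsdhl* were at 0 in both libraries of pair 2, so no fold is given.

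Between pairs 1 and 3, 7 of the 18 sterol genes were lower in pair 3, and on the fatty acid branch *Fasn*, *Scd1* and *Scd2* were higher and *Elovl6* was lower. In a fit to the 4 libraries of these pairs, 2 a pair, with population as a term, edgeR called 12 of the 30 genes, compared with 25.5% of all 11906 genes tested. All 30 genes passed the filter in this fit. The 2 libraries of a pair are its HPC and its LPC library. The p-values of this fit therefore rest on how alike the pair difference was in the 2 populations. They do not measure a spread between replicates of a pair. On the sterol branch 7 of 18 genes fell from pair 1 to pair 3 and 0 rose, with 15 of 18 lower and a median log2 difference of -0.51. On the fatty acid branch 3 of 8 genes rose and 1 fell, with 4 of 8 higher, 4 lower and a median of 0.19. *Srebf1* rose among the 4 regulators. Over all genes 11.8% rose and 13.7% fell, and the median was -0.0063. Whatever else differed between the pairs cannot be told apart from the suffix that names them.

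In the first part of the sterol pathway, *Idi1* showed the largest called difference of the 30 genes. It was at 49.6 CPM in HPC and 44.1 in LPC of pair 1, and at 20.0 and 10.4 CPM in pair 3, both pair 3 libraries lying below both of pair 1. The log2 difference was -1.68 ± 0.24 (adjusted p = 7.8e-06, edgeR), or 3.21-fold lower. *Fdps*, which makes farnesyl diphosphate, was at 32.7 and 39.5 CPM in pair 1 and at 18.8 and 13.4 CPM in pair 3, again without overlap (-1.17 ± 0.25, adjusted p = 0.00098, edgeR). *Hmgcs1* at the pathway's start did not pass (-0.13 ± 0.15, adjusted p = 0.596, edgeR), and neither did *Pmvk*, the phosphomevalonate kinase (-1.01, adjusted p = 0.130, edgeR).

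From squalene onward, 2 of 3 genes on the way to lanosterol and 3 of 8 from there to cholesterol fell. Over all genes, 13.7% fell. *Fdft1* was at 49.1 and 39.5 CPM in pair 1 and at 27.7 and 22.9 CPM in pair 3, a log2 difference of -0.81 ± 0.21 (adjusted p = 0.00542, edgeR). *Lss* was at 14.6 and 20.3 CPM in pair 1 and at 8.89 and 7.45 CPM in pair 3 (-1.09 ± 0.35, adjusted p = 0.0233, edgeR). *Sqle*, the squalene epoxidase between them, differed by -0.02 ± 0.22 and did not pass. *Msmo1* fell by the same amount in both populations, 0.70 in HPC and 0.70 in LPC (-0.70 ± 0.14, adjusted p = 0.000397, edgeR). *Cyp51* fell from 164 and 177 CPM to 126 and 96.9 CPM, by 0.38 in HPC and 0.87 in LPC (-0.62 ± 0.16, adjusted p = 0.00397, edgeR). *Dhcr7*, the last reductase before cholesterol, was at 17.9 and 18.2 CPM in pair 1 and at 6.08 and 9.97 CPM in pair 3 (-1.20 ± 0.35, adjusted p = 0.0119, edgeR). The pair 3 libraries of each of these called genes lay below both pair 1 libraries. In pair 2, which this fit does not use, HPC and LPC were at 0 and 6.58 CPM for *Idi1*, 5.24 and 28.9 CPM for *Fdps*, 33.2 and 6.003 CPM for *Fdft1*, 0 and 9.15 CPM for *Lss* and 0 and 2.001 CPM for *Dhcr7*.

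On the fatty acid branch, the synthase and both desaturases of saturated chains went the other way. *Fasn* was at 150.3 CPM in HPC and 173 in LPC of pair 1, and at 226 and 273 CPM in pair 3, a log2 difference of 0.62 ± 0.14 (adjusted p = 0.00118, edgeR). *Scd2* rose from 609.8 and 699 CPM to 1054 and 905 CPM, by 0.58 ± 0.13 (adjusted p = 0.00119, edgeR), and *Scd1* from 49.9 and 50.1 CPM to 90.6 and 62.0 CPM, by 0.59 ± 0.19 (adjusted p = 0.0239, edgeR). Pair 3 lay above pair 1 in both populations for all 3 genes. *Elovl6*, which lengthens palmitate to stearate, fell instead, from 17.1 and 26.9 CPM to 12.5 and 8.61 CPM (-1.05 ± 0.33, adjusted p = 0.0216, edgeR), with 26.8 and 11.7 CPM in pair 2. The earlier enzymes did not pass the test: *Acly*, which supplies cytosolic acetyl-CoA, differed by -0.19 and *Acaca*, the acetyl-CoA carboxylase, by 0.45. *Fads2*, with 18 and 11 counts in pair 1 and 2 and 1 in pair 3, did not pass either (-3.71 ± 1.46, adjusted p = 0.0661, edgeR). Among the regulators *Srebf1* rose from 12.7 and 15.5 CPM to 29.8 and 25.7 CPM, by 0.98 ± 0.27 (adjusted p = 0.00838, edgeR), while *Srebf2* did not pass (0.41 ± 0.21, adjusted p = 0.154, edgeR).

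All 12 called genes kept their direction in 9 other settings, but their calls did not all hold. DESeq2 called 6 of the 30 (13.0% of all genes). A fit to all 6 libraries, with its wider spread, called 0 of them and 0 of all genes. Leaving out 1 of the 4 libraries, with population no longer a term, left 3 calls without HPC of pair 1 (9.90% of all genes), 2 without LPC of pair 1 (9.23%), 9 without HPC of pair 3 (15.4%) and 5 without LPC of pair 3 (17.2%). *Idi1* was called in 8 of the 9 settings and *Fdps* in 7, whereas *Scd1* and *Scd2* were each called in 3. Other measures also moved with the pairs. Summed over the 7 melanocytic markers, HPC and LPC were at 12354 and 10621 CPM in pair 1. In pair 3 they were at 20733 and 17282 CPM. *Dct* made up most of these sums, with 47746 and 42117 counts in HPC and LPC of pair 1 and 121271 and 122959 in pair 3. Of the 7, 4 (*Pmel*, *Dct*, *Sox10* and *Mitf*) rose, compared with 11.8% of all genes. *Mlana* (log2 difference 0.31), *Tyrp1* (-0.015) and *Tyr* (-2.63) did not pass. The counts of *Tyr* were 502 and 507 in HPC and LPC of pair 1 and 277 and 36 in pair 3. The gene counts were 4680369 and 4560186 in pair 1 and 6569617 and 7311131 in pair 3, and reads assigned to no gene were 17.9% and 14.2% in pair 1 and 13.9% and 12.4% in pair 3. Their part in the result was not tested.

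**Figure D3:**
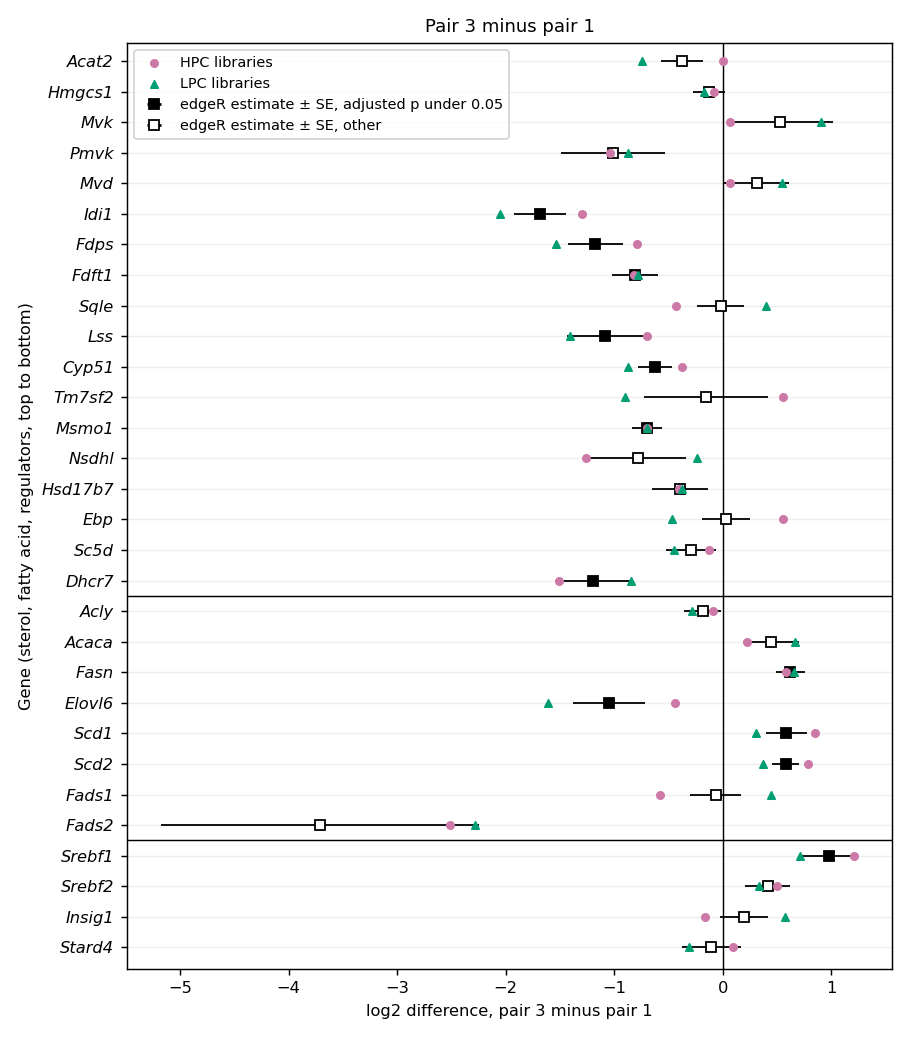
Log2 difference of pair 3 minus pair 1 for the 30 genes, by role, as the edgeR estimate from 4 libraries (squares, bars are 1 SE, filled where the adjusted p is under 0.05) and within HPC (circles) and LPC (triangles). The filled squares of 7 sterol genes and *Elovl6* lie left of the line at 0, and those of *Fasn*, *Scd1*, *Scd2* and *Srebf1* right of it.

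Summed over each branch, the same contrast can be read per library. The 18 sterol genes summed to 992 and 975 CPM in HPC and LPC of pair 1 and to 748 and 648 CPM in pair 3, whereas the 8 fatty acid genes summed to 970.3 and 1081 CPM in pair 1 and to 1509 and 1386 CPM in pair 3. The ratio of the sterol to the fatty acid sum was 1.02 and 0.902 in pair 1 and 0.496 and 0.467 in pair 3, and within a pair HPC and LPC lay close together. Pair 2 had sums of 265 and 287 CPM for the sterol branch and 524 and 539 CPM for the fatty acid branch, a ratio of 0.506 and 0.532. *Scd2* makes up most of the fatty acid sum. Without it the ratio was 2.75 and 2.55 in pair 1, 1.31 and 1.41 in pair 2 and 1.64 and 1.35 in pair 3, so pair 1 remained the highest in both populations.

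**Figure D4:**
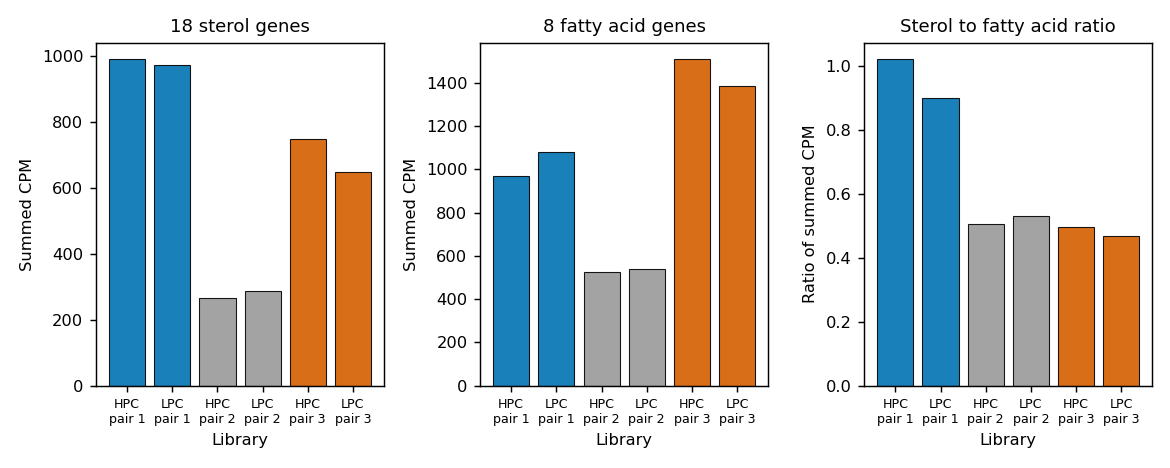
Summed CPM of the 18 sterol and the 8 fatty acid genes, and the ratio of the sums, in each library; 1 bar is 1 library, coloured by pair. Pair 1 has sums of nearly equal size for both branches, and in pairs 2 and 3 the fatty acid sum is the larger.

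A further list of 30 genes of sterol uptake, SREBP processing and lipid synthesis was read beside these, and 27 of them passed the filter. Between HPC and LPC edgeR called 0 of the 27 (0% of all genes), with 0 at an unadjusted p under 0.05 and a median of -0.09, and 0 of 27 without pair 2 and with pair as a term (1.30% of all genes). The smallest unadjusted p values belonged to *Lpin1*, a phosphatidate phosphatase (log2 fold change 0.83), and *Insig2*, the second INSIG (0.45), on the side of HPC. On the side of LPC they belonged to *Acacb*, the mitochondrial form of acetyl-CoA carboxylase (-2.03), and *Tecr*, a reductase of fatty acid elongation (-0.39). Each of the 4 had an adjusted p of 0.9996 in edgeR. Without pair 2 and with pair as a term the values were 0.54 for *Lpin1*, 0.58 for *Insig2*, -0.98 for *Acacb* and -0.012 for *Tecr*. *Acacb* had counts of only 0 to 28 in the 6 libraries. Between pairs 1 and 3, 7 of the 27 rose and 1 fell, with a median of 0.41 over the 27. Of all genes, 11.8% rose and 13.7% fell.

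*Mylip*, a ubiquitin ligase that limits the uptake of lipoprotein cholesterol, rose the most of the 7, from 14.0 and 5.78 CPM in HPC and LPC of pair 1 to 50.3 and 46.1 CPM in pair 3 (2.36 ± 0.27, adjusted p = 1.0e-06, edgeR). *Npc2*, which carries cholesterol out of lysosomes, rose by 0.85 ± 0.13. Of the machinery that releases SREBPs, the escort protein gene *Scap* rose by 0.63 (adjusted p = 0.0337, edgeR) and the protease gene *Mbtps1* by 0.61 (adjusted p = 0.00645, edgeR), while *Mbtps2*, the gene of the other protease, did not pass (-0.18, adjusted p = 0.681, edgeR). In DESeq2 the adjusted p of *Scap* was 0.244. The calls of both were lost with all 6 libraries, and leaving out 1 of the 4 libraries ended the call of *Mbtps1* each time and that of *Scap* in each case but that of HPC of pair 3. *Acsl3* (1.17) and *Acsl4* (0.68), which activate long-chain fatty acids, and *Lpin1* (1.18) rose as well.

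Some counts cannot be given to 1 gene with certainty. Compared with the transcripts of the mouse annotation, 11 of the 30 genes shared a stretch of at least 100 bases at 95% identity, within the last 500 bases, with another gene that has its own row. Over the whole transcript, and whether or not the partner has a row, the longest stretches were 6118 bases between *Acaca* and *Gm5182*, 1477 between *Acat2* and *Acat3*, 1249 between *Fdft1* and *Gm6781* and 1066 between *Fdps* and *Gm5873*. *Idi1* shared 684 with *Gm13502*, and *Scd1* shared 623 with *Scd2*. Exons of 7 genes overlapped a gene on the opposite strand, including *Fdft1* with *Ctsb*, *Cyp51* with *Akap9* and *Srebf1* with *Rai1*. The search for shared stretches took both strands, so such an overlap can also count as a shared stretch. For *Cyp51* and *Srebf1* the opposite gene was the only partner found, and both are counted in the 11 and in the 7. Whether counting used the strand is not given in the sources used here. Of the 12 genes called between pairs, *Msmo1*, *Fasn* and *Scd2* had neither an end shared in this way nor an exon opposite another gene.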

How the data were processed

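The deposited file holds raw gene counts for 6 libraries, and its tally rows are those of HTSeq. STAR and GRCm38 stand in the submitters' processing notes, without role or version. Counting mode, strand and annotation are not given in the sources used here. Neither the tally rows nor the human symbol column entered the fits; reads assigned to no gene were 12.4% to 29.5% of those tallied. The members and lists were chosen with earlier results of these data known. Counts were tested with edgeR 4.0.16 (robust quasi-likelihood fit, filterByExpr at a minimum count of 10, TMM, Benjamini-Hochberg over all genes, threshold 0.05; R 4.3.3), on all 6 libraries without a pair term. Alternatives used DESeq2 1.42.0 and limma 3.58.1, and the script was tested on simulated data. Libraries with the same suffix deviated together (correlations of 0.466, 0.316 and 0.422 over 11324 genes), so the suffix was taken to pair them. Of the 30 genes, values in every library are given for those whose populations do not overlap and those called in any fit. They are also given for the 4 with the highest mean CPM and the regulators *Srebf1*, *Srebf2* and *Insig1*. *Hsd17b7*, *Scd1*, *Fdft1* and the promoters other than that of *Hmgcs1* were added after values were seen. Some genes of the further pathway list are not reported here by name. Floors of 3 counts cover only the counting error of a count of 0. Shared sequence was found with BLAST 2.17.0 in GENCODE transcripts of GRCm38.p6.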

Additional observations from a re-analysis of the deposited data

Results flagged for a closer look

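Reads that the authors' counting assigned to no gene, which no comparison above uses, made up at least 12.4% of the tallied reads in each of the 6 libraries, with the highest shares in pair 2 (29.5% in HPC and 24.5% in LPC). Reads assigned ambiguously to more than 1 gene made up at least 0.487%, with the lowest share in HPC of pair 2 and the highest, 2.51%, in LPC of pair 3. Both were listed because they are signals in data outside the gene counts, and neither can be assigned to a member.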

How the results depend on the processing

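Between HPC and LPC, 0 of the 30 genes and 0 of the other pathway genes were called in the main fit and in each of 17 other settings; the replicate block also gave 0 and changed no call. In DESeq2 without pair 2 only 5 of the 30 genes and 7 of the others had an adjusted p. The sign of the log2 fold change was less steady: 19 of the 29 genes changed sign in at least 1 of the 17, and 10 did not (*Mvk*, *Pmvk*, *Fdft1*, *Lss*, *Tm7sf2*, *Hsd17b7*, *Scd1*, *Fads1*, *Srebf2* and *Stard4*). Leaving out each library in turn, the sterol median ran from -0.33 to 0.43 and the sterol minus fatty acid difference of medians, 0.12 with all 6, from -0.22 to 0.33. Likewise *Scd2* ran from -0.48 to 0.37, *Fasn* from -0.81 to 0.26, *Msmo1* from -0.097 to 0.90, *Cyp51* from -0.66 to 0.48, *Hmgcs1* from -0.49 to 0.43, *Insig1* from -0.31 to 0.49, *Srebf1* from -0.75 to 0.91, *Lpin1* from -0.016 to 1.30 and *Insig2* from -0.039 to 0.74. With the replicate block *Scd2* was at -0.013 and *Insig1* at -0.19. *Cyp51* turned to 0.12 without pair 2 with the replicate block, 0.070 without the block, 0.098 in limma-voom with sample weights and 0.13 in DESeq2 without pair 2. *Srebf1* was at -0.025 without pair 2 with the replicate block and -0.029 in DESeq2 without pair 2, and *Hmgcs1* was at 0.048 in limma-voom. Of the pair 1 and pair 3 comparison, DESeq2 called 6 members, the fit to all 6 libraries 0, and the fits leaving out 1 library 2 to 9. Its sterol median ran from -0.83 to -0.35 over those fits and its fatty acid median from 0.0063 to 0.49, and the fatty acid median was 0.41 with all 6 libraries, where *Fads2* was not tested. The leave-one-out, pair-term-only and 6-library settings of that comparison were chosen after seeing the data. The cause of these shifts was not tested. Members with counts under 20 in a library, as in pair 2, have wide counting error.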

Other observations

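The table's second name column, which pairs each mouse gene with a human symbol, gives a different gene for several members. Of the 30, 19 carry the same symbol in human letters, 10 carry another and 1, *Msmo1*, carries none. *Fasn* is paired with *OXSM*, *Acaca* with *ACACB*, *Srebf1* with *SREBF2*, and *Scd1* and *Scd2* both with *SCD5*. *Cyp51* is paired with *CYP51A1*, the human gene's current symbol. A list of human pathway genes matched through that column would miss or exchange these rows, which is why the mouse symbols were used here.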
